A study of Homo sapiens with 4 samples.

Results

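BRSK2, BAIAP3 and UNC80 encode a protein kinase, a vesicle priming protein and a subunit of an ion channel, and each is best known from neurons or secretory cells of the nervous and endocrine systems. The 3 genes were taken by name from a table of 426 genes that the authors called as changed after depletion of OGT, and all 3 were found there. They had drawn attention through their size of change in that contrast, so their values below are a description and carry no test. The cells were MEG-01, an established human megakaryoblastic line that sheds platelet-like particles, grown in RPMI1640 medium with 10% FBS. Sequencing covered total RNA from 2 libraries of genotype WT and 2 libraries of genotype OGT depletion, titled CR_OGT, which the design text describes as a CRISPR/Cas9 knockdown of that gene. The OGT protein adds single N-acetylglucosamine sugars to serine and threonine residues of proteins inside the cell. The question behind the contrast is how lower OGT alters RNA levels in a model of platelet-forming cells.

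BRSK2 is a serine/threonine kinase of the AMPK-related family. It is switched on by the kinase LKB1, and in neurons it acts in the choice of axon and dendrite fates and at presynaptic vesicles. BAIAP3 is a C2-domain protein related to the UNC13 (MUNC13) priming factors, which prepare vesicles for fusion by acting on SNARE proteins, and it is known from dense-core vesicle traffic in neuroendocrine cells. UNC80 is a large scaffold that joins the sodium leak channel NALCN, with UNC79 and a FAM155 protein, and this channel carries the background sodium current that sets the resting excitability of neurons.

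The RefSeq table of promoter windows (GRCh38.p14) held 4 start sites for BRSK2, 3 for BAIAP3 and 1 for UNC80, all on the plus strand. Gene positions given below are in another build, hg19, so the coordinates cannot be compared directly. No window was placed against the gene starts of the deposited counts. One window is shown for each gene, the 250 bases before a start site, because these stretches differ in what they hold. Capitals mark matches, on either strand, to 7 motifs that were searched: the arms of the RE1 element bound by REST, a repressor of neuronal genes (TTCAGCAC and GGACAGC), the cAMP response element (TGACGTCA) and its core (TGACG), the GATA motif (GATAA), the GC box (GGGCGG) and the TATA box (TATAAA). The full cAMP response element includes its core, and the motifs were chosen with the sequences in view.
BRSK2, start site 3, chr11:1410220-1410469: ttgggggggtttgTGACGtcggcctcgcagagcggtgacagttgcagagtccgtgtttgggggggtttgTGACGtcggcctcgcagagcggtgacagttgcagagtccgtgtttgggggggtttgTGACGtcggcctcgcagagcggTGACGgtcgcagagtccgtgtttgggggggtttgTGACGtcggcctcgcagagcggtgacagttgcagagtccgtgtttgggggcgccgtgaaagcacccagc
BAIAP3, start site 1, chr16:1333395-1333644: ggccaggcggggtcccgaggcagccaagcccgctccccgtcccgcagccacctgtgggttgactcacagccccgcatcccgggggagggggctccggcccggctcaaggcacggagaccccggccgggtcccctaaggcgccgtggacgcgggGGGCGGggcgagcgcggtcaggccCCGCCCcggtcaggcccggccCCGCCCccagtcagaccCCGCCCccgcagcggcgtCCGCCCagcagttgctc
UNC80, only start site, chr2:209771582-209771831: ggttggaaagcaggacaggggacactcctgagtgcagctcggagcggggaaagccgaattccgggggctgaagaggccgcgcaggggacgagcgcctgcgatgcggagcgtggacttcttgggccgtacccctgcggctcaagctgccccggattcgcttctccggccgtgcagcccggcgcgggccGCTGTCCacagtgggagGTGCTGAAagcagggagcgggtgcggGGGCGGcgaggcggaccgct

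The BRSK2 window is a tandem repeat. A stretch of 39 bases that includes TGACG occurs in it 4 times at a spacing of 56 bases, and the core occurs 5 times in all, against 18 of 35114 windows in the table (0.0513%) with as many. The other BRSK2 windows lack that repeat. The BAIAP3 window is the most GC-rich of the 8, at 80.0% G and C, above 96.7% of all windows, whose median is 58.0%. It holds 5 GC boxes, a number reached by 4.15% of windows. The UNC80 window holds both RE1 arms on the minus strand, TTCAGCAC before GGACAGC, with 10 bases between them. This spacing was not compared with that of a full RE1 element, which was not searched. Both arms in that order on a strand, at any spacing, occurred in 14 of 35114 windows (0.0399%). The left arm was in 0.732% and the right arm in 4.76%. None of the 8 windows held a TATA box or a full cAMP response element, motifs found in 10.7% and 1.65% of all windows. A GATA motif was in 1 of the 8, at BAIAP3 start site 3, against 20.4% of all windows. The patterns counted were taken from these windows, so their rarity is a description and no test. These matches describe letters in short windows, and neither the start site used in MEG-01 cells nor any factor's binding was measured here.

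Library totals recovered from the deposited FPKM values (a count scaled to gene length and library size) ran from 17643474 to 19883586 counted reads. OGT itself had 16012 and 19190 normalized counts in the WT libraries, and 9124 and 12185 in the depleted ones, or 60.5% of WT (edgeR's quasi-likelihood test, adjusted p = 0.0327). Its adjusted p was 0.135 without WT replicate 1, 0.658 without WT replicate 2 and 0.0765 with the replicate number as a block. Of 24 megakaryocyte and platelet markers TUBB1 was listed as higher and F2R as lower. Of all tested genes 1.89% were listed as higher and 1.35% as lower. The other markers are not analysed here, so the cell type could not be checked further. Normalized counts are read counts divided by a size factor per library. All p-values measure the spread between libraries, which may be technical only, since the labels do not say that replicates were separate cultures. The treated columns of the table are headed OGTi and were matched to the CR_OGT titles by number. With bulk RNA, more RNA per cell and more cells that make it cannot be told apart.

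BRSK2 was nearly silent in WT cells and clearly detected after OGT depletion. Its read counts (ENSG00000174672, chromosome 11, 1411129 to 1483919, hg19, plus strand) were 5 and 8 in the WT libraries. The depleted libraries had 71 and 79. Both depleted libraries were higher than both WT libraries. The groups did not overlap in any of the 426 listed genes, so this does not set BRSK2 apart. Normalized counts were 5.26 and 8.24 for WT, with a mean of 6.75 ± 2.10 (SD, n = 2), and 67.3 and 75.7 after depletion, with a mean of 71.5 ± 5.98. The ratio of means was 10.6-fold, a log2 ratio of 3.40. Over the 4 pairings of a depleted with a WT library the fold ran from 8.16 to 14.4, and the 13 WT reads and 150 depleted reads gave an interval of 5.99-fold to 20.3-fold (95%, Clopper-Pearson, counting error only).

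BRSK2 had the lowest WT level of the 426 genes, on both the count and the FPKM scale, and the largest ratio of the 248 higher genes. Its place was less extreme in the authors' deposited table, where BRSK2 is given a 2.18-fold increase, number 12 in size among the higher genes, at an adjusted p of 1.25e-05. On the log2 scale the authors' estimate was 0.330 of the log2 ratio of the means, against a median of 0.855 over the table. On a scale of log2(FPKM + 0.1), which understates the change of low genes, the BRSK2 difference was 2.48.

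**Figure D1:**
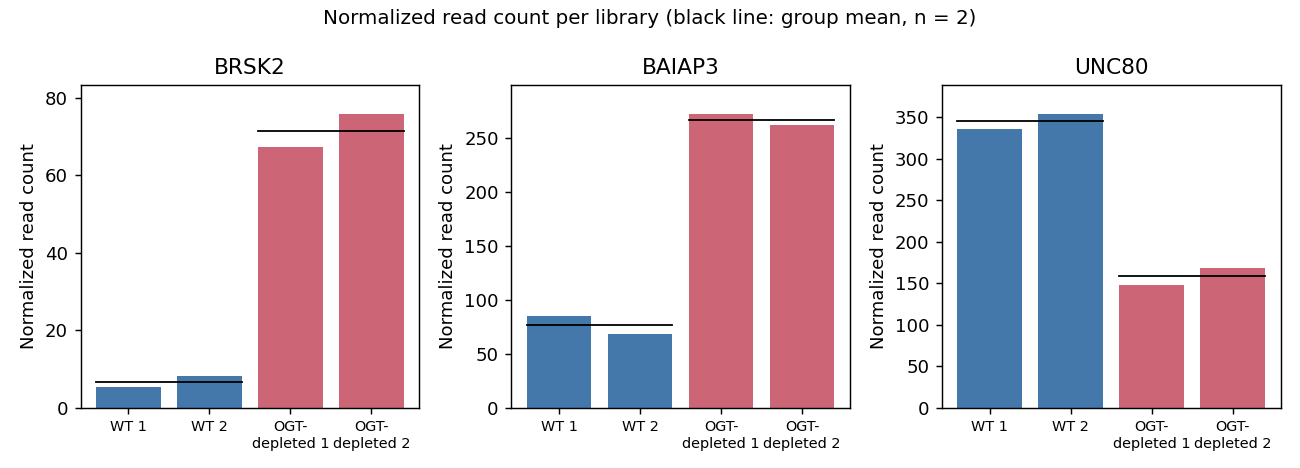
Normalized read count (y axis, linear from 0) of BRSK2, BAIAP3 and UNC80 in each of the 4 libraries, WT in blue and OGT-depleted in red, with the group mean as a black line. BRSK2 and BAIAP3 are higher in both depleted libraries, with means of 71.5 and 266.8, and UNC80 is lower, with a mean of 158.2.

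BAIAP3 was expressed at a low level in WT cells and was 3.48-fold higher after depletion. The gene (ENSG00000007516, chromosome 16, 1383602 to 1399439, hg19, plus strand) had 81 and 66 reads in the WT libraries, and 287 and 273 in the depleted ones. Normalized counts were 85.3 and 68.0 for WT, a mean of 76.6 ± 12.2 (SD, n = 2), and 271.9 and 261.7 after depletion, a mean of 266.8 ± 7.22. The 2 depleted libraries nearly coincided, and the groups did not overlap, as in all 426 listed genes. The counting interval of the fold was 2.90 to 4.21, and no pairing of a depleted with a WT library gave less than 3.07-fold. This was number 10 in size among the 248 higher genes, whose median was 1.87-fold. The authors' deposited table gives BAIAP3 a 2.38-fold increase, number 4 in size among them, at an adjusted p of 5.43e-08. In GENCODE release 29 (GRCh38) the end of BAIAP3 overlaps TSR3, a gene of ribosome biogenesis on the opposite strand, by 202 bases. Whether reads were counted by strand is not stated in the labels, and reads from that stretch may belong to either gene. TSR3 is not in the table.

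UNC80 went the other way, and was at 45.9% of WT after depletion. Reads of UNC80 (ENSG00000144406, chromosome 2, 210636717 to 210864024, hg19, plus strand) numbered 319 and 343 in the WT libraries, and 156 and 176 in the depleted ones. Normalized counts were 335.9 and 353.3 for WT, a mean of 344.6 ± 12.3 (SD, n = 2), and 147.8 and 168.7 after depletion, a mean of 158.2 ± 14.8. Both depleted libraries were lower than both WT libraries, as in all 178 listed lower genes. The log2 ratio was -1.12, library pairs gave 41.8% to 50.2% of WT, and the counting interval was 40.1% to 52.4%. In size this was number 7 among the 178 lower genes, whose median was 64.6% of WT. The authors' deposited table gives UNC80 a log2 change of -0.86 (adjusted p 0.000212). The gene span holds SNAI1P1, a processed pseudogene on the same strand, which is not in the table.

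The deposited length of UNC80, 13562 b, is number 4 in the table, and length moved with replicate number. Across the 426 genes, the log2 difference of replicate 1 minus replicate 2 correlated with length, with a Spearman rho of -0.40 for the WT pair and -0.55 for the depleted pair (genes are not independent replicates). For UNC80 that difference was -0.07 in WT and -0.19 after depletion, beside a change of -1.12 between groups. Replicate 1 was thus the lower in both groups. Of the 10 listed genes longer than 10000 b, 5 were lower after depletion. Over all listed genes, the lower ones had a median length of 4055.5 b and the higher ones 3055.5 b. BRSK2 and BAIAP3 are 4089 b and 4678 b long. The part of length in these values was not tested.

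Per length, UNC80 was the highest of the 3 genes in WT and the lowest after depletion, while BAIAP3 was above BRSK2 in both groups. In WT cells UNC80 had the highest level, 1.29 and 1.43 FPKM with a mean of 1.36 ± 0.103 (SD, n = 2). BAIAP3 followed with 0.948 and 0.800 FPKM (mean 0.874 ± 0.105), and BRSK2 was last with 0.0669 and 0.111 FPKM (mean 0.0889 ± 0.0311). After OGT depletion BAIAP3 was first with 3.09 and 3.10 FPKM (mean 3.09 ± 0.00743). BRSK2 came next with 0.873 and 1.02 FPKM (mean 0.949 ± 0.107), and UNC80 was last with 0.579 and 0.688 FPKM (mean 0.633 ± 0.0778). No neighbours in either order overlapped between libraries. UNC80 was 15.3 times as abundant per length as BRSK2 in WT, and UNC80 was 0.667 times as abundant as BRSK2 after depletion. All of these are low levels for the table, whose median gene had 11.7 FPKM in WT and 11.6 after depletion. Counted from the lowest, the depleted FPKM of UNC80 was number 2 of the 426 genes.

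**Figure D2:**
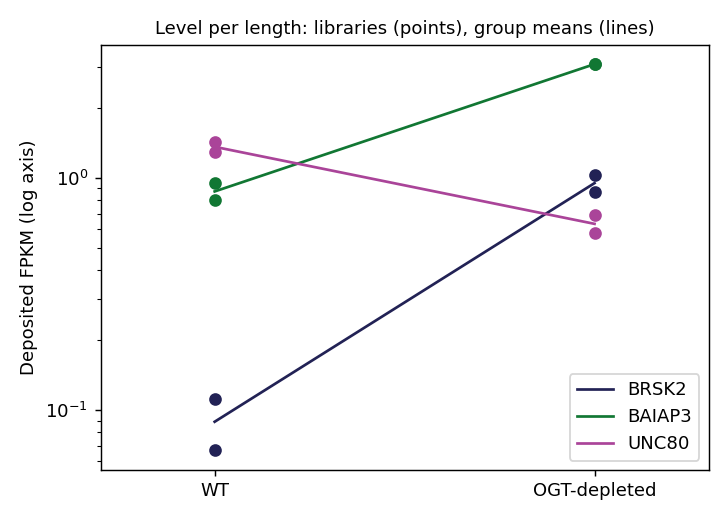
Deposited FPKM (y axis, log scale) of the 3 genes in the WT and OGT-depleted groups, with each library as a point and lines joining the group means. The UNC80 line runs down from 1.36 to 0.633 and crosses those of BAIAP3, which ends at 3.09, and BRSK2, which ends at 0.949.

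The deposited table holds called genes only, and this limits what the levels can show. The authors called 426 of about 13154 tested genes, or 3.24%, with 1.89% higher and 1.35% lower, and the 3 genes were chosen from among them. For every one of the 426 genes the libraries of the 2 groups were fully separated. All 10 genes with a WT mean under 30 normalized counts, BRSK2 among them, were higher, from 2.81-fold to 10.6-fold. Low genes with smaller changes are not in the table.

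**Figure D3:**
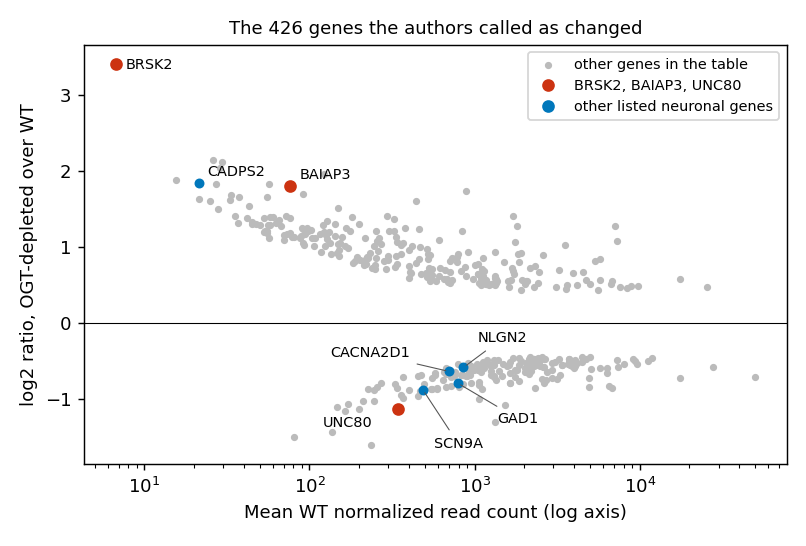
The log2 ratio of OGT-depleted over WT (y axis) against the mean WT normalized count (x axis, log scale) for the 426 called genes, each a point, with BRSK2, BAIAP3 and UNC80 in red and 5 other neuronal genes in blue. BRSK2 stands alone at the top left with 6.75 WT counts and a log2 ratio of 3.40, and the empty band around 0 holds genes that were not called.

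Few other genes of the same pathways were in the table. The 9 lists written for these pathways named 306 other genes, and 5 of them, 1.63%, were present. The refit called 1 of the 5 higher and 4 lower. It covered the 426 listed genes alone and called 350 of them, 214 higher and 136 lower. As shares of all tested genes these are 2.66%, 1.63% and 1.03%, but genes outside the 426 were not refitted. Most listed genes were called again, so the calls of these 5 do not set them apart. Not every list gene need have been among the tested ones, so the shares rest on different denominators. The lists had been drawn up with earlier results of these libraries known. No gene was present from the lists of LKB1 and AMPK-related kinases (26 genes, among them BRSK1), BAI receptors and BAI1-associated proteins (9), platelet granule biogenesis (20), the sodium leak channel complex (6, among them NALCN and UNC79), potassium and HCN channels (64), and REST with its corepressors (15). The levels of these genes are not analysed here.

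The exocytosis list of 76 genes had CADPS2 in the table, and it rose, in the direction of BAIAP3. CADPS2 is a calcium-dependent activator of dense-core vesicle exocytosis, and like BAIAP3 it carries a region related to the MUNC13 priming domain. It had 21.1 and 21.6 normalized counts in the WT libraries, and 74.8 and 77.6 in the depleted ones. Each depleted library was at least 3.46-fold above each WT library. The change was 3.57-fold, or 1.83 ± 0.23 on the log2 scale (SE; 2 libraries per group; edgeR's quasi-likelihood test, adjusted p = 0.00229). CADPS2 has a low WT level like BRSK2, at 0.189 ± 0.0111 FPKM (SD, n = 2), and reached 0.684 ± 0.0379.

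The list of voltage-gated sodium and calcium channels had 2 of 31 genes in the table, and both were lower, as UNC80 was. SCN9A encodes the sodium channel Nav1.7, known for its part in pain signalling by sensory neurons. It had 487.5 and 484.0 normalized counts in WT and 243.5 and 286.6 after depletion. The WT libraries were almost equal, and SCN9A fell to 54.6% of WT (edgeR adjusted p = 0.00821; -0.87 ± 0.15 on the log2 scale, SE). CACNA2D1 encodes the alpha2delta-1 subunit of voltage-gated calcium channels, the protein that binds gabapentin. It had 683.4 and 720.9 normalized counts in WT and 447.1 and 457.2 after depletion, and fell to 64.4% of WT (edgeR adjusted p = 0.0231).

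The neuronal marker list of 59 genes had GAD1 and NLGN2 in the table, both lower. GAD1 makes the transmitter GABA from glutamate, and it had 862.4 and 714.7 normalized counts in WT and 491.7 and 422.7 after depletion, 58.0% of WT (edgeR adjusted p = 0.0134). NLGN2 is an adhesion protein of inhibitory synapses. It had 812.9 and 898.1 normalized counts in WT and 552.3 and 590.4 after depletion, 66.8% of WT (edgeR adjusted p = 0.0333). The summed FPKM of these 2 markers was 20.3 and 20.5 in WT and 12.9 in each depleted library. Both were listed because the authors had called them lower, so a lower sum was fixed by that choice. The other 57 markers are not analysed here.

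**Figure D4:**
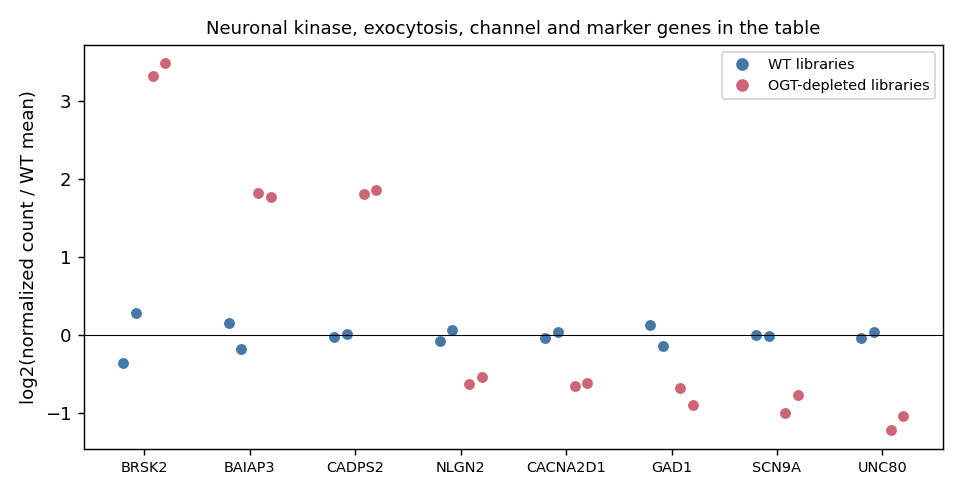
The log2 of normalized count over the WT mean (y axis) for 8 neuronal kinase, exocytosis, channel and marker genes (x axis), with each library as a point, WT in blue and OGT-depleted in red. BRSK2, BAIAP3 and CADPS2 lie above 0 in both depleted libraries and the channel and marker genes lie below.

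These 5 calls rest on few libraries. The authors had already called all 5 genes from the same libraries, so the refit adds no independent support. Without WT replicate 1 the edgeR adjusted p was 0.0683 for CADPS2, 0.116 for SCN9A, 0.155 for CACNA2D1, 0.226 for GAD1 and 0.135 for NLGN2, and without WT replicate 2 the values were 0.0851, 0.114, 0.296, 0.0628 and 0.432. Without OGT-depleted replicate 1, CACNA2D1 and NLGN2 also lost their call (0.0674 and 0.223), and with the replicate number as a block none of the 5 passed in edgeR (adjusted p from 0.0629 to 0.0753).

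BAIAP3 had close neighbours in the table, while BRSK2 and UNC80 had none within 1 Mb. The tryptase genes TPSAB1, TPSB2 and TPSG1, which encode mast cell proteases, start 92.9 kb, 106 kb and 112 kb before BAIAP3 on chromosome 16. All 3 were higher too. TPSAB1 (1290697 to 1292555, hg19) had 116.9 and 129.8 normalized counts in WT and 524.8 and 428.4 after depletion, a 3.86-fold change. TPSB2 (1277272 to 1280214) went from 39.0 and 27.8 to 131.7 and 82.4, or 3.21-fold, and TPSG1 (1271651 to 1275257) from 26.3 and 33.0 to 143.0 and 113.1, or 4.32-fold. In each tryptase gene OGT-depleted replicate 1 was the higher by more than in BAIAP3, where the depleted libraries differed least. TPSAB1 and TPSB2 are near-identical in sequence, so reads of either may have been counted for the other.

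At least 3 called genes with the same direction within 1 Mb was the case for 27 of the 426 genes (6.34%), and for 23 of the 248 higher genes (9.27%). BAIAP3 and the tryptase genes are themselves among both counts. Of the 17 listed genes on chromosome 16, 9 were higher, BAIAP3 and the tryptase genes among them. Over all chromosomes 248 of the 426 listed genes were higher. In the mast cell and basophil list, 8 of 19 genes were in the table, against 3.24% of all tested genes. The refit called 6 of them higher and 2 lower. Of all 426 listed genes it called 214 higher and 136 lower, or 1.63% and 1.03% of tested genes. HPGD of that list rose 2.41-fold (edgeR adjusted p = 0.000912) and FCER1A fell to 60.8% of WT (0.0140). Leaving out either WT replicate cost 5 of the 8 their call, FCER1A and TPSB2 among them, while HPGD, TPSAB1 and TPSG1 passed without each library in turn. With the replicate number as a block, all 8 lost it in edgeR, and DESeq2 size factors from the called genes cost 2 theirs. The summed FPKM of the 8 genes was 274 to 316 in WT and 261 to 285 after depletion, ranges that overlap, and FCER1A made up most of it in WT (209 to 245). Without FCER1A the other 7 genes summed to 64.9 to 71.3 FPKM in WT and 126 to 139 after depletion. Of these 7, MS4A3 was called lower (log2 fold change -0.84, edgeR adjusted p = 0.0310) and the other 6 higher. Each of the 426 listed genes was separated between the groups, so the separation of this sum was largely set by that choice. Of 21 erythroid genes 4 were listed, beside the same 3.24% of all tested genes. Their sum was 114 to 126 FPKM in WT and 231 to 273 after depletion, and without HBE1 it was 66.8 to 68.4 and 74.8 to 76.6. The part of these lineages in the BAIAP3 value was not tested.

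**Figure D5:**
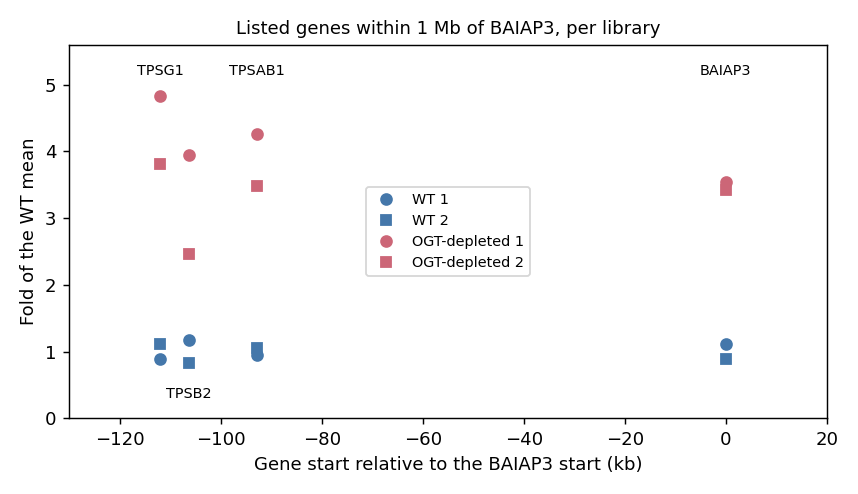
Normalized count of each library as a fold of the WT mean (y axis) for BAIAP3 and the 3 tryptase genes, placed by the distance of the gene start from that of BAIAP3 (x axis, kb), with WT in blue and OGT-depleted in red. All depleted libraries lie above all WT libraries, as in every listed higher gene. The mean folds are 3.21 to 4.32 in the tryptase genes and 3.48 in BAIAP3.

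BRSK2 had no close match to its pattern over the 4 libraries, while BAIAP3 and UNC80 had several. Likeness was the Euclidean distance between log2(normalized count + 1) values centred on each gene's mean, among genes with the same direction. Nearest to BRSK2 were the granzyme gene GZMA at 1.23, TPSG1 at 1.24 and the cancer-testis gene MAGEC1 at 1.28, with smaller changes of 4.41-fold, 4.32-fold and 4.12-fold. Nearest to BAIAP3 were the TNF receptor family gene TNFRSF19 at 0.197, the adhesion-type receptor gene GPR128 at 0.223 and VCX, a gene of the X chromosome known from testis, at 0.235. UNC80 was nearest to the leukocyte integrin gene ITGAL at 0.149, the Wnt ligand gene WNT5A at 0.169 and IZUMO1, a sperm-egg fusion gene, at 0.182. These 3 were at 47.4%, 45.1% and 46.7% of WT, beside 45.9% for UNC80. With 4 libraries in 2 groups, genes of like direction and size are near by construction.

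The direction of BRSK2, BAIAP3 and UNC80 was the same under every scaling tried, and their size was not. Each scaling moved the log2 ratios by less than their own size, so a reversal was not possible. Factors by TMM over the listed genes moved the median log2 fold change of all 426 genes by -0.21 and DESeq2 size factors from the listed genes moved it by -0.49, and both estimate scale on called genes alone. Under the latter the log2 ratios were 2.92 for BRSK2, 1.31 for BAIAP3 and -1.61 for UNC80, each moved by about that shift. The refit called 214 genes higher and 136 lower (61.1% higher), against 135 and 178 (43.1%) with the former factors and 77 and 178 (30.2%) with the latter. Scaling to the totals of all counted reads gave 233 and 135 (63.3%), and log2 ratios of 3.42, 1.82 and -1.10.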

How the data were processed

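RNA sequencing of 4 MEG-01 libraries was analysed, 2 WT and 2 OGT-depleted, grouped by title. The submitters' processing notes name CASAVA 1.8, STAR 2.5, TopHat, DESeq2 and hg19 but no roles. Libraries came from a NEBNext Ultra kit, per the labels' protocols. For the counter, annotation and strand setting, nothing is given in the sources used here. The deposited table holds raw read counts, and FPKM values that the authors scaled to gene length and counted reads. Group means in the deposited table are a normalized signal, made of counts over a size factor, as the values show. The authors also deposited their log2 fold changes with raw and adjusted p-values.

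Size factors were solved from the deposited group means (0.950 and 0.971 in WT, 1.06 and 1.04 in OGT-depleted replicates 1 and 2), and library totals from count, length and FPKM. The refit used edgeR 4.0.16 (glmQLFit, glmQLFTest) in R 4.3.3 with filterByExpr, which kept all 426 genes, Benjamini-Hochberg adjustment over the 13154 genes implied by the deposited adjusted p-values, and calls at an adjusted p under 0.05. DESeq2 1.42.0 was an alternative. Dispersions came from genes chosen as changed, which can make them unrepresentative. Every refitted gene, OGT included, was in the table because the authors had called it from the same libraries. A low p-value in the refit was thus largely set by that choice. The fit was tested on simulated data, where it called 93.8% of the larger changes (log2 of 1) and 25.5% of the smaller ones. That simulation changed 200 of 426 genes under a common dispersion, unlike a table in which every gene was chosen as changed. Replicates differed by more than counting noise (chi-square per gene 13.3 between WT libraries and 22.1 between depleted ones) and were kept apart. Intervals cover counting error only.

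The 3 genes and the gene lists were chosen with earlier results of these data known. Named genes are the 3 genes, OGT, list genes in the table, the 3 nearest patterns per gene and listed neighbours within 1 Mb. For the megakaryocyte, mast cell and erythroid lists only some are named. Promoter windows came from RefSeq (GRCh38.p14), all 3 genes matched by symbol, and gene positions are hg19. Protein sequences were not used here.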

Additional observations from a re-analysis of the deposited data

How the results depend on the processing

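The direction of all 3 genes was the same under every alternative. Their groups did not overlap, like those of every listed gene, so leaving out a library could not reverse them. The log2 ratio of BRSK2 (3.40) was 2.92 under DESeq2 size factors of the listed genes, 2.48 as a difference of log2(FPKM + 0.1), and 3.12 to 3.76 with each library left out in turn. That of BAIAP3 was 1.59 with TMM factors from the listed genes, 1.31 with the DESeq2 size factors, and 1.65 to 1.97 with each library left out. That of UNC80 (-1.12) was -1.33, -1.61 and -1.22 to -1.03 in the same order, and -0.996 on the log2(FPKM + 0.1) scale. Genes called higher (214) numbered 135 and 77 with those 2 scalings. With each library left out they numbered 32 to 223, and genes called lower (136) 5 to 122, the lowest without WT replicate 2 and then without WT replicate 1 (65 higher, 21 lower). Of the 5 list genes, 0 to 1 were called higher and 0 to 4 lower with a library left out. Both were 0 without either WT replicate in edgeR, where all 5 had an unadjusted p under 0.05. DESeq2 called 0 and 1 of the 5 without WT replicates 1 and 2. Without OGT-depleted replicates 1 and 2 it called 0 and 1, where edgeR called 3 and 5.

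Replicate numbers are shared by the groups, but the labels do not say that a number marks a batch or day. The differences between replicates 1 and 2 in the 2 groups correlated across genes (r = 0.50). With the replicate number as a block, edgeR called 0 genes higher and 0 lower, and 0 of the list genes in each direction, with 426 at an unadjusted p under 0.05 and a lowest adjusted p of 0.0629, while DESeq2 with the block called 425. The block left the log2 ratio of BRSK2 at 3.38 and that of UNC80 at -1.12. The cause of these differences was not tested. Depth limits BRSK2 most, with 13 WT reads in all. Genes outside the table are not analysed here.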
